A study of Mus musculus with 3 samples.

Results

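Nodal, Lefty1, Lefty2, Tdgf1, Bmp4, Id1, Id2, Id3, Smad6 and Smad7 are ligands, inhibitors and target genes of Nodal and bone morphogenetic protein (BMP) signalling. These 10 genes were taken by symbol from the 32545 rows of an expression table of mouse embryonic stem cells (ESCs), and each symbol was found. The cells were E3 ESCs, a line from blastocysts of the cross C57BL/6 × 129S6. They were grown on mouse embryonic fibroblast feeders with serum and LIF and harvested at passage 7. Control cells carried the empty vector, while KD4 and KD9 are single clones picked after puromycin selection from cells transfected with shRNA plasmids against the Usp17l genes, a family of deubiquitinases. It is not known here which of the shRNAs each clone carries. The labels name 1 sample for the control and 1 for each clone, and the table has 1 column that matches the labelled control and 2 for each clone. Values are TPM, in which reads are divided by gene length and each column is scaled to the same total. Levels of different genes can therefore be compared, but sequencing depth is unknown. The table also holds another column named as a control. That column could not be tied to a labelled sample and was left out, and all comparisons with the control therefore rest on 1 column. The 2 columns of a clone were averaged for fold changes.

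Nodal is a ligand of the TGF-beta family that signals through activin receptors together with Cripto, the co-receptor made from Tdgf1. SMAD2 and SMAD3, joined by SMAD4 and often by the DNA-binding factor FOXH1, carry the signal to target genes, among them Lefty1 and Lefty2, whose secreted products inhibit Nodal in turn. BMP4 acts through SMAD1 and SMAD5 and switches on the Id genes, whose products keep basic helix-loop-helix factors off DNA and are known to hold back neural differentiation of ESCs, and SMAD6 and SMAD7 are inhibitory SMADs that dampen these signals.

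The genes targeted by the shRNAs had low values in both clones. Usp17le stood at 1.82 TPM in the control, 0.151 and 0.0637 in KD4 and 0.331 and 0.374 in KD9, and Usp17lb at 1.12 in the control and 0.128 to 0.421 in the knockdown columns. The 7 ESC markers, with Dppa5a the most abundant, summed to 3869 TPM in the control, 5536 to 5638 in KD4 and 4159 to 4191 in KD9. Of the 7, 0 lay below the control in KD4, while 3 (Pou5f1, Dppa5a and Utf1) lay below it in KD9. Fibroblast markers differed between the samples. Their sum over 16 genes, led by Col1a1, was 2931 TPM in the control, 522 to 527 in KD4 and 2211 to 2217 in KD9. KD4 had all 16 below the control, KD9 had 11 of 16 below it, and none was at 0. Of the 19950 genes whose mean TPM reached 0.5, 10403 lay below the control in KD4 and 11363 in KD9, so the KD9 count says little by itself. In KD9, 2 of the 16 (Dcn and Lum) were over 2-fold higher than the control and 0 over 2-fold lower. In bulk samples, fewer cells of a type and less RNA per cell cannot be told apart.

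RefSeq promoters (build GRCm38.p6, 250 bases before to 50 after the start site) were matched for 6 of the 10 genes, Nodal, Tdgf1, Bmp4, Id2, Id3 and Smad6. The 3 promoters printed here belong to Tdgf1, Bmp4 and Id3, which of these 6 differed most between KD4 and KD9. Capitals mark matches, on either strand, to CAGAC, bound by SMAD3 and SMAD4, to GGCGCC, a GC-rich element bound by SMAD1 and SMAD5, or to TGTNNATT, an element bound by FOXH1.
Tdgf1 (chr9:110946109-110946408, minus strand): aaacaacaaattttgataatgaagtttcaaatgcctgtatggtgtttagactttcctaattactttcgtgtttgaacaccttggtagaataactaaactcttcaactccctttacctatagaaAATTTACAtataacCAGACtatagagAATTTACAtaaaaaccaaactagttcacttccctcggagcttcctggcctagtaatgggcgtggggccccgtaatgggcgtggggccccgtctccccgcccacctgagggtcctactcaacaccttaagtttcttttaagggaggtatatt
Bmp4 (chr14:46390620-46390919, minus strand): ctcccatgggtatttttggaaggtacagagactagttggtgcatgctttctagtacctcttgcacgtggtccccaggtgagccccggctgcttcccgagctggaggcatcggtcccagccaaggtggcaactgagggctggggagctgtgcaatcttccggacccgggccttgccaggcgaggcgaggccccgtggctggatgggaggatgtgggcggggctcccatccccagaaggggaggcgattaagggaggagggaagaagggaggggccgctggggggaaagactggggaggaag
Id3 (chr4:136143572-136143871, plus strand): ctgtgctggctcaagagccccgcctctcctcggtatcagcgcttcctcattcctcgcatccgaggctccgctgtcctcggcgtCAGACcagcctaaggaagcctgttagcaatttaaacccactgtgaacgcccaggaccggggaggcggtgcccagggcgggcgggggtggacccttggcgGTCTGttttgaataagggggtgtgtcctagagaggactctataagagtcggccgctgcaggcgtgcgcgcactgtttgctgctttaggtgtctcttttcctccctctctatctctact
Positions are those of the first base of a match, counted from the start site. Tdgf1 held TGTNNATT at -127 and -101, as AATTTACA on the printed strand, and CAGAC at -113. Id3 held CAGAC at -167 and its reverse complement GTCTG at -68. No match lay in the windows of Bmp4, Nodal and Smad6, and Id2 held GGCGCC at -231. Of the 6 genes, 2 held CAGAC, 1 held GGCGCC and 1 held TGTNNATT, while of all 32851 promoter windows of 300 bases 49.6% held CAGAC, 11.9% GGCGCC and 12.2% TGTNNATT. A match describes letters and does not show binding.

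Lefty1 and Lefty2, the feedback inhibitors of Nodal, had the lowest values of the 10 genes relative to the control, and Nodal itself lay near the control. Lefty1 (chr1:180935022-180938400 in mm10) stood at 471 TPM in the control, at 82.0 and 96.2 in KD4 and at 70.2 and 64.5 in KD9. The knockdown columns were close to each other and far below the control. The control was 5.28-fold higher than KD4 and 6.99-fold higher than KD9. As log2(TPM + 0.1), the scale of every fold change given here, which understates changes of low genes, these were -2.40 and -2.80. Lefty2 (chr1:180893108-180899103), its paralogue 35918 bases away on the same strand, stood at 120.4 TPM in the control, 34.0 and 36.3 in KD4 and 31.6 and 30.5 in KD9, with log2 fold changes of -1.77 and -1.95. Again the control column lay above all 4 knockdown columns, as it did for 30.1% of all genes tested. Among the 19950 genes whose mean TPM reached 0.5, Lefty1 ranked 143 and Lefty2 305 from the lowest fold change in KD9. In KD4 they ranked 445 and 804.

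The test set both clones, each as 1 replicate, against the lone control in limma, with p-values adjusted over the 19950 genes whose mean TPM reached 0.5. Lefty1 had a log2 fold change of -2.60 (SE 0.29, limma adjusted p = 0.640) and Lefty2 of -1.86 (SE 0.24, limma adjusted p = 0.640). At an adjusted p of 0.05, limma called 0 of the 10 genes, beside 0% of all genes higher and 0% lower. At an unadjusted p of 0.05 it gave 506 genes higher and 535 lower of the 19950. That is near the number such a cut passes where no gene differs. Bmp4 was among the higher, and Lefty1 and Lefty2 among the lower. A second limma fit took every column as a library. It called 3.91% of all genes higher and 6.94% lower, with Lefty1 (limma adjusted p = 0.0104) and Lefty2 (limma adjusted p = 0.00898) among the lower. The error of that fit comes only from columns of the same clone. With the clone added as a block, limma called 0% higher and 0% lower, gave 537 higher and 659 lower genes at an unadjusted p of 0.05, and left Lefty1 and Lefty2 at an adjusted p of 0.363.

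The 2 paralogues share sequence, and reads that map to both were not counted. Searched in the transcripts of GENCODE M21, 4.80% of the 100-base stretches of Lefty1 also occurred in Lefty2, and 3.08% of those of Lefty2 in Lefty1, so most of each transcript is distinct at that length. With 50-base stretches the shares found in any other gene were 17.9% and 11.6%. Lefty1 stood at 3.91 times the TPM of Lefty2 in the control and at 2.12 to 2.65 times in the knockdown columns.

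Nodal (chr10:61417972-61425338) stood at 61.3 TPM in the control, 58.4 and 68.7 in KD4 and 56.6 and 59.1 in KD9. The control lay inside the range of the knockdown columns. Log2 fold changes were 0.05 for KD4 and -0.08 for KD9, and limma gave -0.02 (SE 0.24, adjusted p = 0.9996), a sign that turned when the columns were rescaled by median ratios (0.02). The ratio of inhibitor to ligand was therefore lower in the clones. Lefty1 was 7.67 times as abundant as Nodal in the control and 1.09 to 1.40 times in the knockdown columns, and Lefty2 1.96 times and 0.516 to 0.582 times. Lefty2 thus exceeded Nodal in the control column and was below it in all 4 knockdown columns.

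Tdgf1 (chr9:110939603-110946158), which encodes Cripto, had the highest TPM of the 10 genes in every column. It stood at 488 in the control, 665 and 668 in KD4 and 483 and 460.4 in KD9. Both KD4 columns were above the control and both KD9 columns just below it. Log2 fold changes were 0.45 and -0.05, and limma gave 0.20 over both clones (SE 0.33, adjusted p = 0.9996). KD4 exceeded KD9 by 0.50 in log2, with an adjusted p of 0.0127 in the limma fit on columns. KD4 and KD9 are 1 labelled sample each, so this p-value and the others given for KD4 against KD9 measure only the spread between columns of the same sample, and the difference between the clones has no replicates. Tdgf1 shared 4.69% of its 100-base stretches with Tdgf1-ps1, a pseudogene, and reads in them are uncertain.

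**Figure D1:**
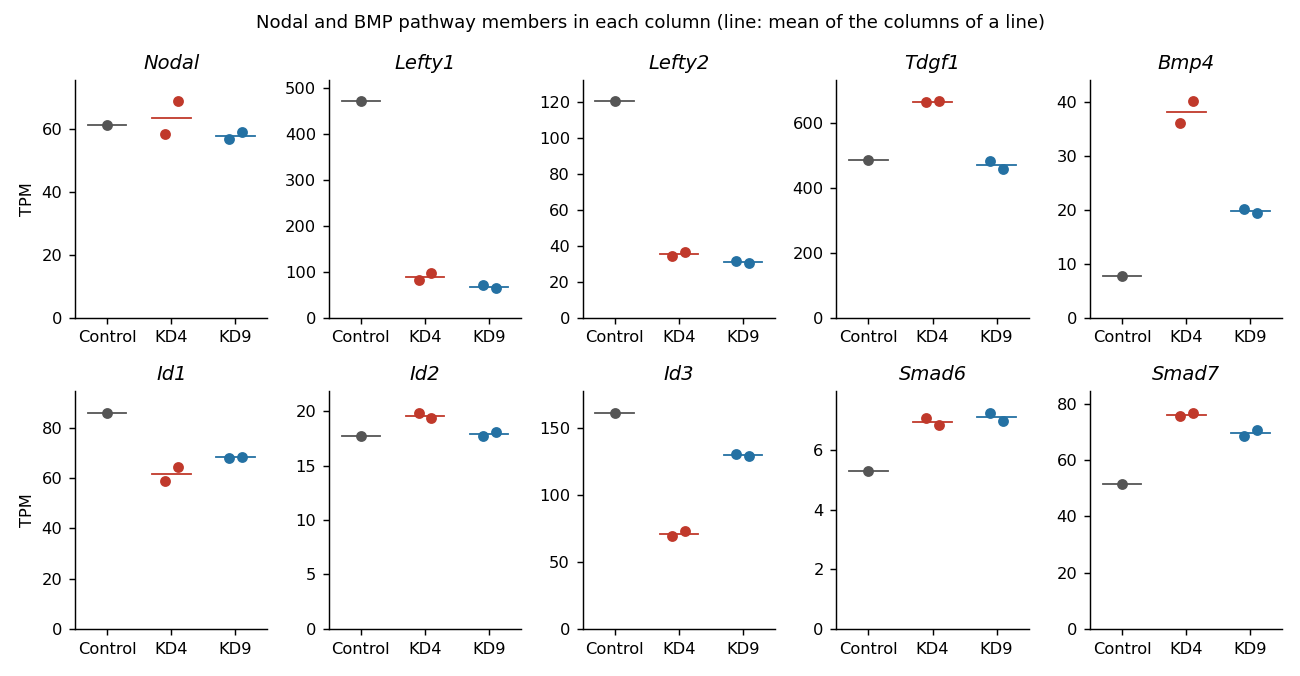
TPM of each gene (vertical axis from 0, with its own scale per panel) in the control column and the columns of KD4 and KD9. Points are columns and lines are means of a clone. Lefty1 stood at 471 in the control and at 64.5 to 96.2 in the knockdown columns, Bmp4 at 7.72 and 19.3 to 40.1, and Nodal at 61.3 and 56.6 to 68.7.

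Bmp4, the BMP ligand, had the highest values relative to the control. The gene (chr14:46383520-46390669) stood at 7.72 TPM in the control, 36.0 and 40.1 in KD4 and 20.2 and 19.3 in KD9. All knockdown columns were above the control, and those of KD4 above those of KD9. KD4 was at 4.93 times and KD9 at 2.56 times the control, or 2.29 and 1.34 in log2, and limma gave 1.82 over both (SE 0.48, adjusted p = 0.817). The limma fit on columns gave an adjusted p of 0.0104 for both clones against the control and of 0.00841 for KD4 against KD9, a difference of 0.94 in log2. Relative to Nodal, Bmp4 stood at 0.126 times in the control, 0.584 to 0.617 times in KD4 and 0.327 to 0.356 times in KD9. Gm15217 on the other strand covers 3.96% of the exon bases of Bmp4. It stood at 0.340 TPM in the control and 1.15 to 3.38 in the knockdown columns, and reads from the shared bases cannot be assigned without strand.

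The Id genes, targets of BMP signals, were not uniformly higher or lower. Id1 and Id3 had lower values than the control and Id2 lay near it. Id1 (chr2:152736251-152737410) stood at 86.0 TPM in the control, 58.7 and 64.4 in KD4 and 68.1 and 68.5 in KD9, which is -0.48 and -0.33 in log2. Id3 (chr4:136143497-136145755) stood at 162 in the control, 69.7 and 72.9 in KD4 and 131 and 129 in KD9, or -1.18 and -0.31. Both genes were below the control in all knockdown columns, and Id3 was lowest in KD4. Id2 (chr12:25093799-25097140) stood at 17.8, 19.9 and 19.3, and 17.7 and 18.0 TPM in the same order, or 0.14 and 0.01, with the control near the lower end of the knockdown columns. Over both clones limma gave -0.41 for Id1 (SE 0.24), -0.75 for Id3 (SE 0.44) and 0.08 for Id2 (SE 0.26), each with an adjusted p of 0.9996.

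In the limma fit on columns, Id1 (adjusted p = 0.0485) and Id3 (adjusted p = 0.0135) were called lower, and Id2 (adjusted p = 0.395) was not called. Id3 differed between KD4 and KD9 by -0.87 in log2 (limma fit on columns, adjusted p = 0.00456). KD4 also had the lowest fibroblast markers, with a sum of 522 to 527 TPM against 2211 to 2217 in KD9 and 2931 in the control. Their part in the value of Id3 was not tested.

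Smad7 and Smad6, the inhibitory SMADs, had values above the control in every knockdown column. Smad7 (chr18:75367529-75395935) stood at 51.5 TPM in the control, 75.4 and 76.8 in KD4 and 68.4 and 70.6 in KD9. These are 0.56 and 0.43 in log2, with 0.50 in limma (SE 0.23, adjusted p = 0.9996). Smad6 (chr9:63953076-64022059), the gene of lowest mean TPM among the 10, stood at 5.29, 7.07 and 6.84, and 7.26 and 6.99 in the same order. Its clones did not separate from each other, with 0.39 and 0.42 in log2 and 0.40 in limma (SE 0.30, adjusted p = 0.9996). On columns, limma called Smad7 higher (adjusted p = 0.0190) and did not call Smad6 (adjusted p = 0.0673).

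Beside all genes tested, 2 of the 10 (Lefty1 and Lefty2) were over 2-fold lower in both clones, where 3.2% of all genes were, and 1 (Bmp4) was over 2-fold higher in both, where 2.47% were. Id3 was the third gene over 2-fold lower in KD4, which held 9.5% of all genes on that side and 5.18% on the higher side. For KD9 these shares were 5.45% and 4.21%. The control exceeded all 4 knockdown columns for 4 genes (Lefty1, Lefty2, Id1 and Id3; 30.1% of all genes) and was below all 4 for 3 (Bmp4, Smad6 and Smad7, 20.5% of all genes). The median of the 10 was 0.10 in KD4 and -0.07 in KD9, against -0.02 and -0.06 over all genes. All 10 passed the filter on mean TPM.

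The limma fit on columns called 2 of the 10 higher (Bmp4 and Smad7) and 4 lower (Lefty1, Lefty2, Id1 and Id3), beside 3.91% and 6.94% of all genes. With the clone as a block limma called 0 of the 10. At an unadjusted p of 0.05 that fit had 2 of the 10 higher and 3 lower, beside 537 and 659 of all 19950 genes. Between the clones, which are unreplicated, the fit on columns separated Tdgf1 and Bmp4 as higher in KD4 (14.9% of all genes) and Id3 as lower (13.4%), relative to the spread of columns within a clone only. The KD4 columns lay wholly above those of KD9 for 6 genes (Lefty1, Lefty2, Tdgf1, Bmp4, Id2, Smad7; 38.5% of all genes) and wholly below for 2 (Id1 and Id3, 29.9% of all genes). Tdgf1 was the 1 gene of the 10 with the clones on opposite sides of the control, as were 20.6% of all genes.

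**Figure D2:**
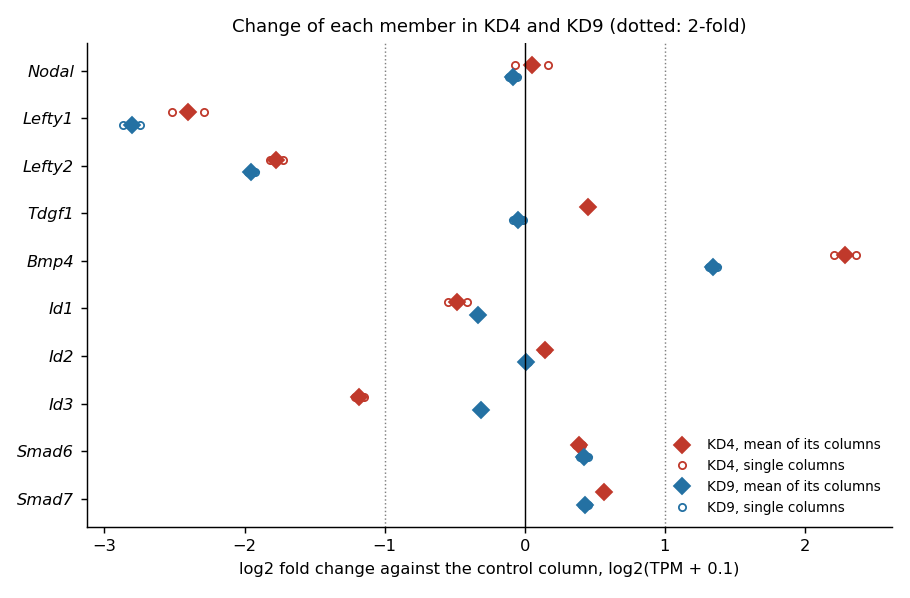
Log2 fold change of each gene against the control column, as log2(TPM + 0.1). Diamonds are the mean of a clone, open circles single columns, and dotted lines mark 2-fold. Lefty1 (-2.40 and -2.80) and Lefty2 (-1.77 and -1.95) lay to the left for both clones, Bmp4 (2.29 and 1.34) to the right, and Id3 passed 2-fold in KD4 alone.

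The order of the levels differed between the samples. In the control, Tdgf1 and Lefty1 were the most abundant, then Id3, Lefty2, Id1, Nodal, Smad7, Id2, Bmp4 and Smad6. In KD9 the mean TPM was 472 for Tdgf1, with Id3 next, followed by Smad7 (69.5), Id1 (68.3) and Lefty1 (67.3), whose columns overlapped. In KD4, Bmp4 (38.1) overlapped with Lefty2 (35.2).

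The other genes of these pathways were taken from 8 lists with 78 genes, 65 of which passed the filter. Of the 65, 0 were over 2-fold higher and 5 over 2-fold lower in both clones, beside 2.47% and 3.2% of all genes. Fgf8, which is among the 5, passed the filter only through the control column. The medians were -0.41 in KD4 and -0.25 in KD9. In limma 0 were called. At an unadjusted p of 0.05, 1 was higher and 6 lower, beside 506 and 535 of all 19950 genes. On columns limma called 1 higher and 18 lower, beside 3.91% and 6.94% of all genes. With the clone as a block limma called 0 higher and 0 lower. At an unadjusted p of 0.05 that fit had 1 higher and 13 lower, beside 537 and 659 of all 19950 genes.

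Among 6 other Nodal and activin targets measured, Fgf8, a growth factor of the early embryo, was over 2-fold lower in both clones. It stood at 2.38 TPM in the control and 0.0742 to 0.487 in the knockdown columns (-3.43 and -2.27 in log2). Pmepa1, an inhibitor of TGF-beta signalling, had -0.92 and -0.27. The medians of this list were -0.71 and -0.54.

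Primitive endoderm markers were low in the same samples as Lefty1 and Lefty2. All 8 were below the control in KD4 and all 8 in KD9, where 7611 of the 19950 genes tested were below it in both. Sox17 stood at 1.37 TPM in the control, with means of 0.327 in KD4 and 0.215 in KD9. Foxa2 stood at 1.60, 0.404 and 0.185 in the same order. Both passed the filter only through the control column, so the filter itself fixed their place below it. The 8 markers summed to 85.5 TPM in the control, 42.0 in KD4 and 40.8 to 43.1 in KD9, with Lama1 as the most abundant. Neither their part in the values of Lefty1 and Lefty2 nor that of the fibroblast markers was tested.

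Receptors and transducers of the Nodal pathway lay nearer to the control, with medians of -0.07 and -0.24 over 8 genes and 0 past 2-fold in both clones. Acvr1b, an activin type I receptor, had 0.16 and 0.12, and Smad4, the SMAD that all these pathways share, -0.10 and -0.23. Foxh1 stood at 78.3 TPM in the control, 65.0 and 62.1 in KD4 and 40.6 and 36.1 in KD9. Its columns were lowest in KD9 (-0.30 and -1.03 in log2).

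Other ligands, antagonists and processing enzymes of the Nodal group had medians of 0.08 and 0.01 over 8 genes, and 0 passed 2-fold in both clones. Inhba, the subunit of activin A, stood at 171 TPM in the control, 49.4 and 54.2 in KD4 and 91.8 and 93.4 in KD9 (-1.72 and -0.89 in log2). Gdf3, a TGF-beta family ligand of ESCs, had 0.32 and -0.20, and Inhbb, another activin subunit, 0.10 and 0.22.

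Among the BMP genes, the 7 other ligands had medians of -0.69 and -0.21, and the 8 receptors and transducers -0.72 and -0.19, with 0 past 2-fold in both clones. Bmp8b stood at 9.67 TPM in the control and 9.27 to 10.4 in the knockdown columns. Bmp6 had -0.69 and -0.47 in log2, and Bmp7 -1.35 and -0.21. Bmpr1a, a type I receptor, had -0.54 and -0.34. Smad1 (-0.02 and 0.10) and Smad5 (-0.13 and -0.10), which carry the BMP signal, lay close to 0.

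The 9 measured genes that restrain BMP signals had medians of -0.35 and -0.29. Grem1, a secreted BMP inhibitor, had values above the control. It stood at 105 TPM in the control, 168 and 167 in KD4 and 222 and 223 in KD9 (0.67 and 1.08 in log2). Fstl1, a secreted follistatin-like protein, stood at 459 in the control, 139 and 142 in KD4 and 407 and 400.1 in KD9. The fibroblast markers were also lowest in KD4, and their part in the value of Fstl1 was not tested. Among 7 other BMP targets (medians -0.27 and 0.20), Hey1, a transcriptional repressor that Notch also induces, was over 2-fold lower in both clones, at 4.15 TPM in the control and 0.854 to 1.78 in the knockdown columns. Id4 had -0.16 and -0.39, and Runx2, a factor of bone formation, -0.44 and 0.20.

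Of the 12 TGF-beta genes, KD4 had 12 and KD9 8 below the control, with medians of -1.19 and -0.41. Taking every gene tested, 10403 of 19950 lay lower for KD4 and 11363 for KD9, so the KD9 count alone says little. The ligand gene Tgfb2 stood at 7.49 TPM in the control, 1.66 and 1.79 in KD4 and 3.59 and 3.77 in KD9, over 2-fold lower in both clones. Ctgf, a target of the pathway, had -1.29 and -0.68. The fibroblast markers had medians of -2.56 and -0.35 in the same samples, and their part in the TGF-beta values was not tested.

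**Figure D3:**
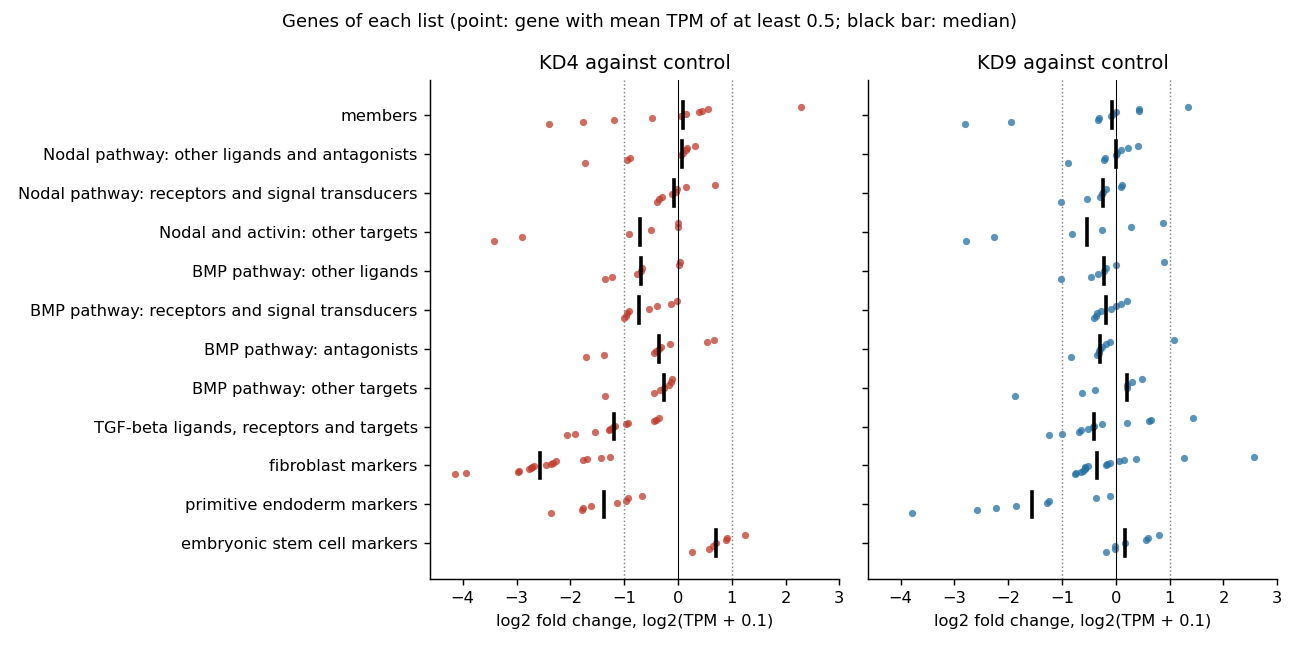
Log2 fold changes against the control, as log2(TPM + 0.1), in KD4 and KD9 for the genes of each list that passed the filter. Points are genes, bars are medians and dotted lines mark 2-fold. The fibroblast markers had medians of -2.56 in KD4 and -0.35 in KD9, and the primitive endoderm markers -1.37 and -1.57. Of the primitive endoderm markers, Sox17 and Foxa2 passed the filter only through the control column.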

How the data were processed

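Poly-A RNA-seq was made from 3 labelled samples. Reads were trimmed (Trim Galore), mapped to mm10 (HISAT2) and counted where unique (featureCounts, default settings), after which the authors deposited TPM. Tool versions, annotation and read length: not given in the sources used here. Columns of a clone were averaged into 1 replicate, and 1 per-sample column, named as another control, fits no labelled sample and was not used. limma 3.58.1 (R 4.3.3; lmFit, eBayes with a trend, two-sided, Benjamini-Hochberg) was run on log2(TPM + 0.1) for genes whose mean TPM reached 0.5, with 1 residual and 3.01 prior degrees of freedom. It assumes that a single control varies as the clones do, and p-values measure only the spread between these samples. Each clone was described against the control by fold. KD4 was set against KD9 in limma on columns, where the error comes from columns of 1 sample. The script was tested on simulated data. Genes, lists and tests were chosen with earlier results of these data known. Named are the 10 genes and, per list, those past 2-fold in both clones, filled up to 3 with the most abundant. Some genes this rule names are not reported here. Coordinates are from GENCODE M21. Tables used Python 3.11.15. Alternatives were other pseudocounts, filters, folds, columns, scaling and limma settings.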

Additional observations from a re-analysis of the deposited data

Results flagged for a closer look

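Tdgf1 had both KD4 columns above the control and both KD9 columns below it, so that KD4 exceeded KD9 by 0.50 in log2. Of the 24 other pathway genes that the naming rule chose, 3 had the clones on opposite sides too, and such a split was found for 20.6% of all genes tested, so neither count stands above that of all genes. Gdf3 stood at 80.0 TPM in the control, 102 and 97.9 in KD4 and 74.2 and 65.1 in KD9, a difference of 0.52. The difference was -0.13 for Smad1 and -0.65 for Runx2. Each clone is 1 labelled sample, so none of these differences was tested between samples. On columns, limma gave an adjusted p of 0.0127 for Tdgf1, 0.0237 for Gdf3, 0.144 for Smad1 and 0.0328 for Runx2.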

How the results depend on the processing

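Of 88 counts of genes recomputed under the alternatives, 81 stayed within 1.5 times the reported count. Past 3-fold, 0 of the 10 genes were higher in KD9 or in both clones. On columns, limma called 2 of the 10 higher and 4 lower, beside 3.91% and 6.94% of all genes. It called 0 of the 10 in the other alternatives with a test. Other pathway genes past 2-fold in both clones were 1 higher and 8 lower with no filter, and 2 lower where the mean TPM had to reach 5. Rescaling by median ratios put Nodal at 0.0157 in limma, and moved fold changes by 0.0023 in KD4 and 0.06 in KD9. With either clone left out, 1 of the 10 was past 2-fold higher and 2 to 3 lower, and limma had no residual degrees of freedom. The adjusted p over the alternatives in limma ran from 0.0104 to 0.722 for Lefty1, 0.00898 to 0.722 for Lefty2 and 0.0104 to 0.852 for Bmp4. Each fold change rests on 1 control column, and the precision of weakly expressed genes such as Smad6 is limited by a depth that is unknown. No paired analysis was possible because there is only 1 labelled control, and KD4 and KD9 have no replicate number in their labels.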

Other observations

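Some genes of the Nodal lists were under the filter on mean TPM and were not tested; they are named after their values were seen. T, the mesoderm factor brachyury, stood at 0.758 TPM in the control, 0.0866 and 0.109 in KD4 and 0.710 and 0.442 in KD9, with the control above all 4 knockdown columns. Lhx1, a LIM homeobox gene, stood at 0.407 in the control and 0.0202 to 0.0685 in the knockdown columns, and Mixl1, a homeobox gene of the primitive streak, at 0.722 and 0.110 to 0.324. Cer1, a secreted Nodal inhibitor, was at 0.224 in the control and listed at 0 in all 4 knockdown columns. Cfc1, a co-receptor related to Cripto, was listed at 0 in the control and at 0.179 to 0.974 in the knockdown columns. Goosecoid (Gsc) and Eomes, targets that passed the filter, stood at 0.384 and 1.85 in the control, with 0.300 to 0.908 and 1.77 to 2.73 in the knockdown columns.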
